A study of Mus musculus with 27 samples.

Results

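The genes described here encode the enzymes and regulators that make cholesterol and fatty acids, followed in mouse cerebral cortex during the first day after a transient stroke. The 31 genes were chosen by symbol with earlier results of these data known, so their shares of calls below are descriptive. They were 6 mevalonate pathway genes, 11 genes of squalene and later sterol steps, and 5 regulators and sterol carriers. The others were 5 genes of acetyl-CoA supply and fatty acid synthesis, and 4 desaturases. All 31 had a row among the 22340 genes of the table, and all 31 were abundant enough to be tested, among 18087 genes tested in all.

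Cholesterol hardly crosses the blood-brain barrier, so brain cells make their own from acetyl-CoA through mevalonate, farnesyl diphosphate, squalene and lanosterol. Oligodendrocytes use large amounts of it for myelin, and astrocytes supply it to neurons on lipoproteins. When sterol in the endoplasmic reticulum is low, the SREBP transcription factors are carried to the Golgi, cut free and switch on most genes of both pathways, whereas Insig proteins hold them back when sterol is high.

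RNA was depleted of ribosomal RNA and sequenced from the cortex of wild-type C57BL6 mice aged 7 to 8 weeks. In the stroke animals a filament blocked the right middle cerebral artery for 35 min, and the common carotid artery was tied during this time. The tissue was ipsilateral (occluded side) cortex after 3, 6, 12 or 24 h of reperfusion, contralateral cortex after the same 4 times, or cortex of sham mice, which had anesthesia and exposure of the arteries but no filament. Each of these 9 groups had 3 libraries, each from animals of a separate day of surgery. All groups carried the same genotype. The labels do not say when after surgery the sham tissue was taken, from which hemisphere it came, or whether both hemispheres of 1 mouse were used. A change against sham therefore cannot be told apart from a difference in the hour of sampling. Nor can a change between reperfusion times. In bulk tissue, fewer cells of a type and less RNA per cell cannot be told apart.

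Total counts ran from 26505996 to 48830897 per library, and 18579 to 19935 genes had at least 1 count. The neuron, astrocyte, oligodendrocyte and microglia markers listed for cortex had counts in all 27 libraries. Between 24.4 and 40.4% of counts came from mitochondrial ribosomal RNA, most in the ipsilateral library of replicate 1 at 24 h. A dependence on GC content stood out in the contralateral library of replicate 1 at 3 h, where gene levels spanned 1.03 in log2 from low to high GC, compared with 0.323 or less elsewhere. Levels below are CPM (counts scaled to library size) after TMM normalization, and fold changes and adjusted p-values come from edgeR's quasi-likelihood test with Benjamini-Hochberg adjustment over all 18087 genes, called where the adjusted p was under 0.05.

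The level of these genes differed widely before any comparison was made. Per kilobase of exonic length, sham cortex had the highest level of Scd2, a desaturase that makes monounsaturated fatty acids, at 185 CPM per kb. Next came the fatty acid synthase gene Fasn at 33.9, the polyunsaturated fatty acid desaturase gene Fads1 at 33.7 and the citrate-cleaving enzyme gene Acly at 30.1 CPM per kb. Among the sterol genes Insig1, which encodes a retention protein for SREBP, stood at 28.6 and Fdft1, which encodes squalene synthase, at 18.3 CPM per kb. The lowest were the sterol reductase gene Tm7sf2 at 2.99 and Idi1, which encodes the isomerase of isopentenyl diphosphate, at 3.09 CPM per kb. The length used joins the exons of all GENCODE transcripts of a gene, so it can exceed that of its main transcript. The order of the genes depends on this choice.

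Promoters in the RefSeq table for build GRCm38.p6, which covers 250 bases before to 50 bases after each start, were found for 24 of the 31 genes, the others being Scd1, Scd2, Stard4, Sqle, Fdft1, Fads1 and Fdps. They were searched on both strands for 4 motifs chosen for this pathway, the sterol regulatory element TCACNCCAC, the E-box CACGTG, the NF-Y box CCAAT and the Sp1 box GGGCGG. The NF-Y box was in the promoter of 20 of 24 member genes (83.3%), against 41.8% of 12403 tested genes with a promoter. The Sp1 box was also in 20 of 24 (83.3%), against 63% of tested genes, and the E-box in 4 of 24 (16.7%), against 10.8%. The strict sterol element was in none of the 24, against 1.42% of tested genes. A looser form, ATCACNNCA, was tried after the sequences had been read and was in 3 of 24 (12.5%), against 2.32%. These 3 genes were Cyp51, called below sham on the contralateral side only, Srebf2, called on the ipsilateral side only, and Msmo1, called on both. The sites of this looser form are shown with 10 bases on each side. They read 5′ to 3′ in the direction of the gene with the motif in capitals. Distances are counted from the RefSeq start, which can differ from the GENCODE start. The Cyp51 site lies 89 bases before it, at chr5:4104768-4104796 on the minus strand. That of Msmo1 lies 93 bases before it, at chr8:64733653-64733681 on the minus strand, but inside the GENCODE gene, which ends at 64733792. That of Srebf2 lies 163 bases before it, at chr15:82147096-82147124 on the plus strand.
Cyp51: ataggccgagATCACCTCAgcagcgcgtg
Msmo1: gcacggaccaATCACTGCAcggcgaaggc
Srebf2: atgacgcaccATCACCCCAtgagccgctt
Matches of letters describe these windows only.

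For the mevalonate gene Mvd and the SREBP regulator Insig1, called on both sides at 12 h, and for Nsdhl, called on the ipsilateral side at 12 and 24 h, the stretch before the first annotated start is shown. The NF-Y box in either orientation (CCAAT or ATTGG) is in capitals. The stretches are chr8:122443423-122443672, minus strand, for Mvd, chr5:28071162-28071362, plus strand, for Insig1, and chrX:72918271-72918520, plus strand, for Nsdhl.
Mvd: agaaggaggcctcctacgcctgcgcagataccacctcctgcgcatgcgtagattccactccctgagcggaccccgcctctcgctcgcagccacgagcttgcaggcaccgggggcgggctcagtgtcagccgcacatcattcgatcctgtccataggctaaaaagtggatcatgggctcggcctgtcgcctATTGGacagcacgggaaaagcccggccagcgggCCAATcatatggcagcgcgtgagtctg
Insig1: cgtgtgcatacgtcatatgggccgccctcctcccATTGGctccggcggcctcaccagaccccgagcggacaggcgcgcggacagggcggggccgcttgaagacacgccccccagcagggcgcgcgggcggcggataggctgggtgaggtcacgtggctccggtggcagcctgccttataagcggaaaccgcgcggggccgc
Nsdhl: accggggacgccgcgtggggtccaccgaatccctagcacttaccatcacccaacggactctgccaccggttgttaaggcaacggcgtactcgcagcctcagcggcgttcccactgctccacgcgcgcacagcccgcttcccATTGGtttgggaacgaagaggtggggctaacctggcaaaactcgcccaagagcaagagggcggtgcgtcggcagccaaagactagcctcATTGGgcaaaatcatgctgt
The boxes of Mvd began 60 and 27 bases before its RefSeq start, those of Nsdhl 109 and 20 bases before, and that of Insig1 216 bases before, its RefSeq start lying inside the GENCODE gene.

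Against sham, every called member was lower in stroke cortex, on either side of the brain and at each time with a call. Called falls were absent at 3 h, few at 6 h and most numerous at 12 h on the ipsilateral side. Calls in ipsilateral cortex numbered 0, 3, 15 and 10 members at the successive times, and in contralateral cortex 0, 0, 3 and 6. Of all genes, 1.09% fell in ipsilateral cortex at 6 h, 3.72% at 12 h and 10.9% at 24 h, and 0.144% fell in contralateral cortex at 12 h and 0.0829% at 24 h. At 3 h 0.243% of all genes were called ipsilaterally and 0.0111% contralaterally, and 0.0332% contralaterally at 6 h. The median log2 fold change of the 31 members in ipsilateral cortex began at -0.07 and -0.11 (3 and 6 h) and was -0.38 at 12 h and -0.25 at 24 h. In contralateral cortex it was 0.02, -0.02, -0.23 and -0.25 over the same course, while the median of all tested genes stayed within 0.0313 of 0 in each comparison. All 8 of these comparisons share the same 3 sham libraries.

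**Figure D1:**
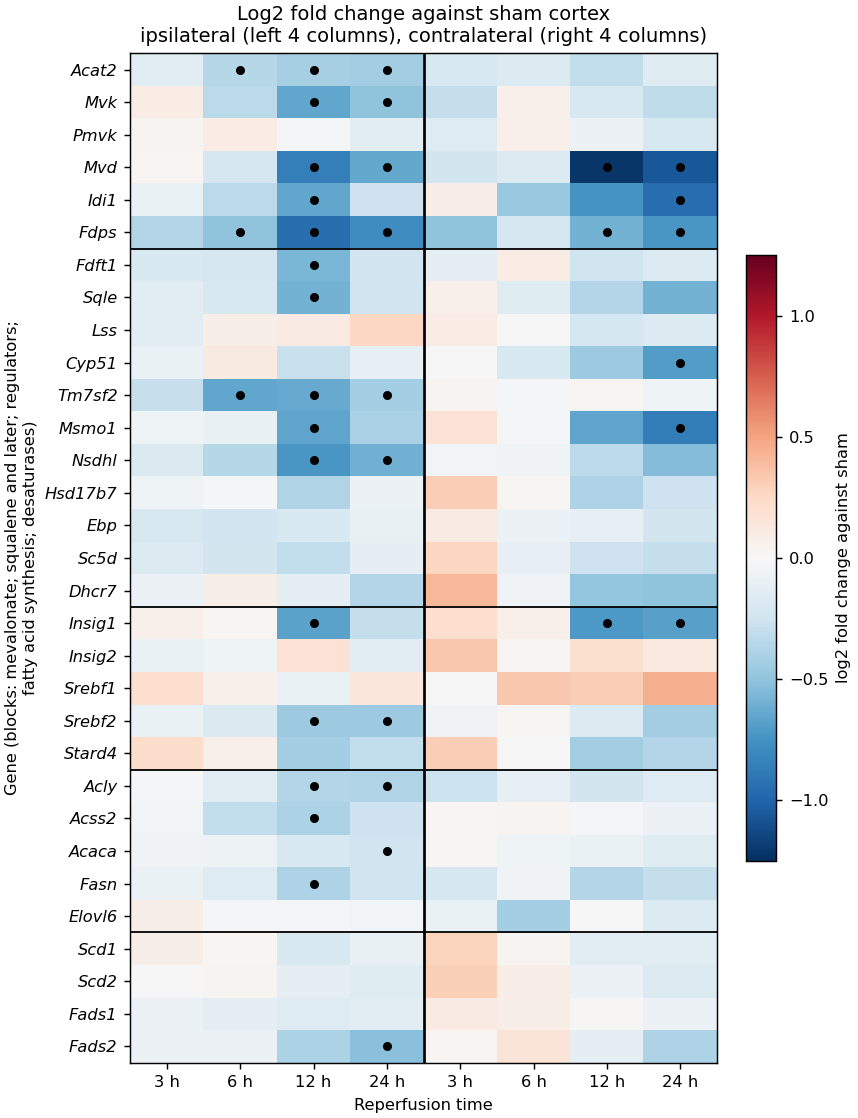
Log2 fold change of each of the 31 genes (rows, in blocks by role) against sham cortex, for ipsilateral cortex (left 4 columns) and contralateral cortex (right 4 columns) at 3, 6, 12 and 24 h of reperfusion, with a black dot where the adjusted p was under 0.05. Dots gather in the ipsilateral columns at 12 h (15 genes) and 24 h (10 genes) and in the contralateral columns at 12 h (3 genes) and 24 h (6 genes), and all lie on blue cells, the lower side.

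At 3 h no member was called in ipsilateral cortex against sham, where 0.243% of all genes were called, and 1 member passed an unadjusted p of 0.05, as did 8.58% of all genes. In contralateral cortex at 3 h no member was called either, where 0.0111% of all genes were called. There 5 members were higher and 2 lower at an unadjusted p under 0.05, or 7 of 31, while 8.64% of all genes passed the same limit. Replicate 1 of contralateral cortex at 3 h, the library that followed GC content, was the highest of all 27 libraries for the sterol genes Msmo1, Sc5d and Dhcr7. Not every sterol gene was high in it. Mvd had 8.26 CPM there, against 17.0 and 13.3 CPM in the other contralateral libraries at 3 h and 14.3 to 15.8 CPM in sham cortex. Msmo1, which encodes an oxidase in the removal of methyl groups from sterol intermediates, had 151 CPM in this library, 81.2 and 80.4 CPM in the other contralateral libraries at 3 h, and 89.9, 91.4 and 94.3 CPM in sham cortex. DESeq2 also called 0 members in either comparison at 3 h, and leaving this library out still gave 0 calls.

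At 6 h ipsilateral cortex had 3 members that fell against sham, where 1.09% of all genes fell. Tm7sf2 (chromosome 19, 6062821 to 6068373, minus strand; coordinates here and below are those of GENCODE on mm10), a reductase of sterol intermediates after lanosterol, had 7.78, 8.07 and 9.24 CPM in ipsilateral cortex, against 11.3, 13.5 and 14.7 CPM in sham cortex. The groups did not overlap, and the log2 fold change was -0.65 ± 0.15 (SE; adjusted p = 0.00624). Fdps, which encodes farnesyl diphosphate synthase, fell by 0.50 on the log2 scale (adjusted p = 0.0164), and Acat2, the cytosolic thiolase that joins acetyl-CoA units, fell by 0.36 (adjusted p = 0.0266). Leaving out 1 library at a time, Fdps lost its call without sham replicate 1 or 2 or ipsilateral replicate 1 or 2 (adjusted p 0.0691 to 0.115). Acat2 lost it without any of these or sham replicate 3 (adjusted p 0.0553 to 0.111). In contralateral cortex at 6 h no member was called by edgeR or DESeq2, where edgeR called 0.0332% of all genes, and 2 members had an unadjusted p under 0.05, as did 4.3% of all genes.

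The mevalonate steps turn acetyl-CoA into farnesyl diphosphate. At 12 h, 5 of these 6 genes fell in ipsilateral cortex, all but Pmvk, which encodes phosphomevalonate kinase. Over all 31 members 15 fell in ipsilateral cortex at 12 h (48.4%), where 3.72% of all genes fell, and in 21 of the 31 all 3 ipsilateral libraries lay below all 3 sham libraries, as did 17.3% of all tested genes. Fdps (chromosome 3, 89093588 to 89101959, minus strand) had 26.2, 28.4 and 27.3 CPM in ipsilateral cortex at 12 h, against 54.8, 54.8 and 48.3 CPM in sham cortex. The highest ipsilateral library was far below the lowest sham library. The log2 fold change was -0.95 ± 0.13 (SE; adjusted p = 2.36e-05), a level 1.93-fold lower.

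Mvd, which encodes the decarboxylase that yields isopentenyl diphosphate (chromosome 8, 122433601 to 122443422, minus strand), had 8.33, 6.72 and 10.1 CPM in ipsilateral cortex at 12 h, against 15.8, 14.3 and 15.3 CPM in sham cortex. It fell by 0.85 on the log2 scale (SE 0.18; adjusted p = 0.00251), with no overlap of the groups. Mvk, which encodes mevalonate kinase, had 8.37, 9.08 and 9.82 CPM in ipsilateral cortex at 12 h, against 13.4, 14.9 and 14.6 CPM in sham cortex (log2 fold change -0.65, adjusted p = 0.0136). Here too the groups did not overlap. Idi1 had 6.96, 5.96 and 7.79 CPM in ipsilateral cortex at 12 h, against 12.1, 10.4 and 9.97 CPM in sham cortex (-0.65, adjusted p = 0.0194). Acat2 had 20.7, 20.6 and 19.6 CPM in ipsilateral cortex at 12 h, against 26.9, 28.0 and 26.2 CPM in sham cortex (-0.41, adjusted p = 0.00719). Both were below sham in each ipsilateral library. Pmvk had 20.0, 19.5 and 17.0 CPM in ipsilateral cortex at 12 h, against 20.4, 20.7 and 16.0 CPM in sham cortex, and its log2 fold change was -0.02 ± 0.14 (SE; adjusted p = 0.963). Omission of single libraries ended the call of Mvk without sham replicate 2 or ipsilateral replicate 1 (adjusted p 0.0585 to 0.0882), and that of Idi1 without sham replicate 1 or ipsilateral replicate 1 or 2 (0.0691 to 0.0989).

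The steps from squalene to cholesterol build the sterol rings and then trim them. Of these 11 genes 5 fell in ipsilateral cortex at 12 h, namely the first steps Fdft1 and Sqle and, after lanosterol, Tm7sf2, Msmo1 and Nsdhl. Fdft1 (chromosome 14, 63145150 to 63179578, minus strand) had 51.4, 50.2 and 54.7 CPM in ipsilateral cortex at 12 h, against 78.6, 79.6 and 74.1 CPM in sham cortex. Its log2 fold change was -0.57 ± 0.10 (SE; adjusted p = 0.000456), and the groups were clearly apart. Nsdhl, which encodes a dehydrogenase of methyl removal (chromosome X, 72918557 to 72958514, plus strand), had 7.68, 7.92 and 9.54 CPM in ipsilateral cortex at 12 h, against 14.6, 14.3 and 12.8 CPM in sham cortex. It fell by 0.73 on the log2 scale (SE 0.13; adjusted p = 0.000615). Its partner Msmo1 (chromosome 8, 64718139 to 64733792, minus strand) had 59.0, 49.6 and 65.8 CPM in ipsilateral cortex at 12 h, against 89.9, 91.4 and 94.3 CPM in sham cortex (log2 fold change -0.66, adjusted p = 0.0159). Here too each ipsilateral library was below each sham library.

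Squalene epoxidase, an oxygen-dependent control point of the pathway encoded by Sqle, averaged 40.5 ± 7.55 CPM in ipsilateral cortex at 12 h and 61.0 ± 4.17 CPM in sham cortex (SD, n = 3 each; -0.59, edgeR adjusted p = 0.0178). Tm7sf2 stayed low, by 0.63 on the log2 scale (adjusted p = 0.00599). The lanosterol synthase gene Lss had 44.2, 34.2 and 48.7 CPM in ipsilateral cortex at 12 h, against 38.1, 39.4 and 40.7 CPM in sham cortex, and its log2 fold change was 0.11 ± 0.15 (SE; adjusted p = 0.721). The other 5 genes of this branch, Cyp51, Hsd17b7, Ebp, Sc5d and Dhcr7, which encode the lanosterol demethylase and the late reductase, isomerase and desaturase steps, had log2 fold changes from -0.37 in Hsd17b7 to -0.11 in Dhcr7, none called. Without single libraries, Sqle was not called when sham replicate 1 or 3 or ipsilateral replicate 1 or 2 was left out (adjusted p 0.0529 to 0.0971), and Msmo1 when sham replicate 3 or ipsilateral replicate 1 or 2 was left out (0.0506 to 0.0619). In the annotation 18.3% of the exonic bases of Fdft1 overlap Ctsb on the opposite strand, 26.7% of those of Fdps overlap Gm43738 and 12.1% of those of Tm7sf2 overlap Vps51 on the same strand. Whether counting used strand is not given in these sources, so reads of these overlaps are of uncertain origin.

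Among the regulators, Insig1 and Srebf2 fell in ipsilateral cortex at 12 h and Insig2, Srebf1 and Stard4 were not called. Insig1 (chromosome 5, 28071363 to 28078662, plus strand) is itself a target of SREBP. It had 55.5, 45.6 and 65.4 CPM in ipsilateral cortex at 12 h, against 96.4, 83.1 and 85.6 CPM in sham cortex, a log2 fold change of -0.67 ± 0.14 (SE; adjusted p = 0.00226). Srebf2, which encodes the SREBP that mainly drives sterol genes (chromosome 15, 82147181 to 82205379, plus strand), had 122, 126 and 135 CPM in ipsilateral cortex at 12 h, against 176, 176 and 175 CPM in sham cortex. The fall of 0.46 on the log2 scale passed (SE 0.10; adjusted p = 0.00466), with the groups well apart. Srebf1, which encodes the SREBP tied mainly to fatty acid genes, had 29.1, 35.9 and 39.7 CPM in ipsilateral cortex at 12 h, against 34.7, 40.5 and 36.0 CPM in sham cortex, so the groups overlapped (log2 fold change -0.09, adjusted p = 0.811). Insig2, which encodes the other Insig protein, had 39.2, 31.7 and 33.5 CPM in ipsilateral cortex at 12 h, against 32.4, 30.8 and 28.9 CPM in sham cortex, again with overlap (0.18, adjusted p = 0.411). Stard4, a cytosolic sterol carrier gene, had a log2 fold change of -0.43 ± 0.20 (SE; adjusted p = 0.189).

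In ipsilateral cortex at 12 h, 3 of the 5 genes of acetyl-CoA supply and fatty acid synthesis fell and 0 of the 4 desaturase genes did. Acly had 123, 122 and 124 CPM in ipsilateral cortex at 12 h, against 164, 158 and 154 CPM in sham cortex (log2 fold change -0.37, adjusted p = 0.0272). Acss2, which encodes an enzyme that makes acetyl-CoA from acetate, had 30.1, 34.5 and 33.0 CPM in ipsilateral cortex, against 39.1, 45.3 and 43.6 CPM in sham cortex (-0.39, adjusted p = 0.0271). Fasn had 285, 265 and 303 CPM in ipsilateral cortex, against 375, 358 and 381 CPM in sham cortex (-0.38, adjusted p = 0.0346). None of the 3 overlapped with sham, yet their margins were narrow. The calls of Acly and Fasn were lost without any 1 of the 6 libraries (adjusted p 0.0608 to 0.104 and 0.0526 to 0.118), and that of Acss2 without sham replicate 2 or 3 or ipsilateral replicate 1 or 3 (0.0702 to 0.16). Acaca, which encodes acetyl-CoA carboxylase, and the elongase gene Elovl6 had log2 fold changes of -0.20 and -0.03 and were not called. The desaturase genes Scd1, Scd2, Fads1 and Fads2 lay between -0.40 for Fads2 (adjusted p = 0.0657) and -0.11 for Scd2 (adjusted p = 0.639). Scd2 had 933, 864 and 1010 CPM in ipsilateral cortex at 12 h, against 946, 1000 and 1090 CPM in sham cortex. Scd1, a related desaturase gene, had 113, 114 and 137 CPM in ipsilateral cortex at 12 h, against 131, 141 and 145 CPM in sham cortex (-0.20, adjusted p = 0.348). Both overlapped with sham. Over all 31 members, 8 were called without ipsilateral replicate 1 at 12 h and 10 to 13 without each other library of this comparison.

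**Figure D2:**
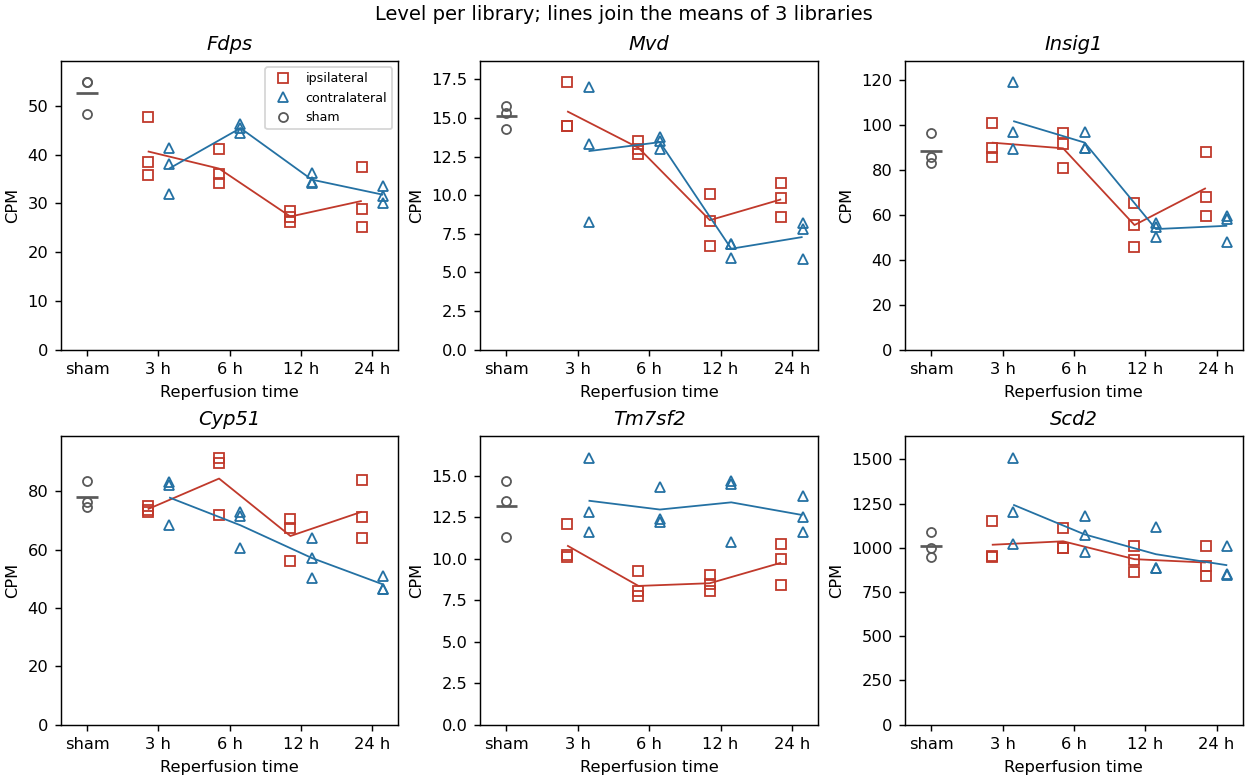
CPM of 6 genes in each of the 27 libraries by reperfusion time, with sham at the left, red squares for ipsilateral, blue triangles for contralateral and grey circles for sham libraries, and lines through the means of 3 libraries. Fdps, Mvd and Insig1 are low on both sides at 12 h, Cyp51 is low contralaterally at 24 h (46.4 to 51.1 CPM), Tm7sf2 is lower ipsilaterally than in sham from 6 h on, and Scd2 overlaps sham at 12 and 24 h.

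By 24 h 10 members were lower in ipsilateral cortex than in sham cortex (32.3%), where 10.9% of all genes fell. The mevalonate genes Acat2, Mvk, Mvd and Fdps, the later sterol genes Tm7sf2 and Nsdhl, and the regulator Srebf2 were called at 12 and at 24 h, as was Acly. Fdps had 37.5, 28.8 and 25.2 CPM in ipsilateral cortex at 24 h, against 54.8, 54.8 and 48.3 CPM in sham cortex, a log2 fold change of -0.79 ± 0.13 (SE; adjusted p = 0.000101). Srebf2 had 142, 121 and 122 CPM in ipsilateral cortex at 24 h, against 176, 176 and 175 CPM in sham cortex (-0.45, adjusted p = 0.00256). Replicate 1 was the highest ipsilateral library at 24 h for both genes, and it was the library with the largest share of mitochondrial ribosomal RNA, whose part in these values was not tested.

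Fads2, which encodes the first desaturase of polyunsaturated fatty acid synthesis (chromosome 19, 10062765 to 10101746, minus strand), had 41.3, 32.6 and 34.1 CPM in ipsilateral cortex at 24 h, against 50, 51.4 and 53.4 CPM in sham cortex. It fell by 0.52 on the log2 scale (SE 0.14; adjusted p = 0.00812), the groups did not overlap, and its call held without any single library. Acaca fell by 0.25 (adjusted p = 0.0496), just within the threshold. It was not called with other size factors or filters (adjusted p 0.0599 to 0.0737), with the compared groups alone (0.101), or without any 1 sham library or ipsilateral replicate 1 or 3 (0.0657 to 0.246). Of the genes called only at 12 h, Insig1 had 88.2, 59.6 and 68.0 CPM in ipsilateral cortex at 24 h, against 96.4, 83.1 and 85.6 CPM in sham cortex, so replicate 1 reached the sham range while the others stayed below (log2 fold change -0.30, adjusted p = 0.123). Without ipsilateral replicate 3 only 5 members were called at 24 h. Other omissions gave 7 to 12, and leaving out contralateral replicate 1 at 3 h together with ipsilateral replicate 1 at 24 h, the libraries that stand apart, gave 17. Single omissions also ended the calls at 24 h of Mvk (adjusted p 0.0563 to 0.178), Tm7sf2 (0.0583 to 0.168), Acly (0.0542 to 0.083) and, without ipsilateral replicate 3, Mvd (0.0574). With surgery day as a block Msmo1 was also called at 24 h (-0.43, adjusted p = 0.0309).

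Among the ipsilateral times themselves, a test without sham found 10 members that differed, of 31, where 13.0% of all genes differed. They were Mvk, Mvd, Fdps, Fdft1, Msmo1, Nsdhl, Insig1, Srebf2, Acly and Fads2. The smallest adjusted p were those of Insig1 (0.00208) and Mvd (0.0041). Mvd, Fdps and Insig1 were called under each of the 20 alternatives. Over these times Mvd averaged 15.4, 13.1, 8.39 and 9.72 CPM in ipsilateral cortex. The count was 3 without ipsilateral replicate 2 at 3 h, 4 without replicate 1 at 12 h, and 6 without replicate 3 at 3 h or replicate 2 at 24 h.

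In contralateral cortex, the side that was not occluded, few genes of any kind changed against sham. At 12 h, 3 members fell (9.68%), where 0.144% of all genes fell, that is 26 genes. The 3 were Mvd, Fdps and Insig1. Mvd had 5.94, 6.81 and 6.85 CPM in contralateral cortex at 12 h, against 15.8, 14.3 and 15.3 CPM in sham cortex. Each contralateral library was below 7 CPM and each sham library above 14, and the log2 fold change of -1.21 ± 0.18 (SE; adjusted p = 0.0013) was the lowest of the 31 members in any of the 8 comparisons with sham. Its call held without any single library. Insig1 had 56.6, 50 and 54.5 CPM in contralateral cortex at 12 h, against 96.4, 83.1 and 85.6 CPM in sham cortex (-0.72, adjusted p = 0.0146). Fdps had 34.3, 36.2 and 34.1 CPM, against 54.8, 54.8 and 48.3 CPM in sham cortex (-0.59, adjusted p = 0.034).

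Those last 2 calls depended on single libraries. Fdps was not called without any 1 of the 6 libraries (adjusted p 0.0701 to 0.253), and Insig1 without sham replicate 1 or contralateral replicate 2 or 3 (0.0958 to 0.159), so that Mvd alone remained called in those 3 cases. With surgery day as a block, Idi1 (log2 fold change -0.72, adjusted p = 0.046) and Msmo1 (-0.67, adjusted p = 0.0333) were called as well, 5 members in all. Both were below sham in each library without the block, with Idi1 at 6.08, 7.04 and 6.40 CPM in contralateral cortex, against 12.1, 10.4 and 9.97 CPM in sham cortex (-0.74, adjusted p = 0.0894). In 19 of the 31 members the 3 contralateral libraries at 12 h lay below the 3 sham libraries, as did 8.75% of all tested genes.

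At 24 h, 6 members fell in contralateral cortex (19.4%), where 0.0829% of all genes fell, that is 15 genes. All 6 belong to sterol synthesis or its control, as do most of the members. They were Mvd, Idi1 and Fdps of the mevalonate steps, Cyp51 and Msmo1 of the later steps, and Insig1. Cyp51, which encodes the lanosterol demethylase (chromosome 5, 4081145 to 4104746, minus strand), had 46.4, 46.6 and 51.1 CPM in contralateral cortex at 24 h, against 76.4, 74.6 and 83.4 CPM in sham cortex. The groups were far apart, with a log2 fold change of -0.70 ± 0.12 (SE; adjusted p = 0.011). Idi1 had 5.77, 5.43 and 5.64 CPM in contralateral cortex at 24 h, against 12.1, 10.4 and 9.97 CPM in sham cortex (-0.95, adjusted p = 0.0244). Msmo1 had 54.6, 45.3 and 51.7 CPM in contralateral cortex at 24 h, against 89.9, 91.4 and 94.3 CPM in sham cortex (-0.86, adjusted p = 0.042). The contralateral values of both genes were tightly grouped and below sham.

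Mvd averaged 7.29 ± 1.24 CPM in contralateral cortex at 24 h and 15.1 ± 0.79 CPM in sham cortex (SD, n = 3 each; -1.06, edgeR adjusted p = 0.011). Fdps averaged 31.8 ± 1.73 CPM in contralateral cortex at 24 h and 52.6 ± 3.79 CPM in sham cortex (SD, n = 3 each; -0.73, edgeR adjusted p = 0.011). Insig1 averaged 55.2 ± 6.41 CPM in contralateral cortex at 24 h and 88.3 ± 7.06 CPM in sham cortex (SD, n = 3 each; -0.68, edgeR adjusted p = 0.0411). Of the members not called, Nsdhl (-0.55), Srebf2 (-0.43), Sqle (-0.59) and Dhcr7 (-0.51) were also below sham in each contralateral library at 24 h, with adjusted p of 0.113, 0.118, 0.234 and 0.574. Srebf1 went the other way, with 50.2, 53.9 and 47.5 CPM in contralateral cortex at 24 h, against 34.7, 40.5 and 36.0 CPM in sham cortex. All 3 contralateral libraries were above sham, but the log2 fold change of 0.45 ± 0.17 (SE) was not called (adjusted p = 0.577).

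No contralateral call at 24 h held in every single omission. The count of 6 became 0 without sham replicate 1, contralateral replicate 1 or contralateral replicate 2, 1 without sham replicate 3, 2 without sham replicate 2 and 3 without contralateral replicate 3. The median log2 fold change of the 31 members stayed between -0.32 and -0.23 in these omissions, and the called values kept their sign.

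**Figure D3:**
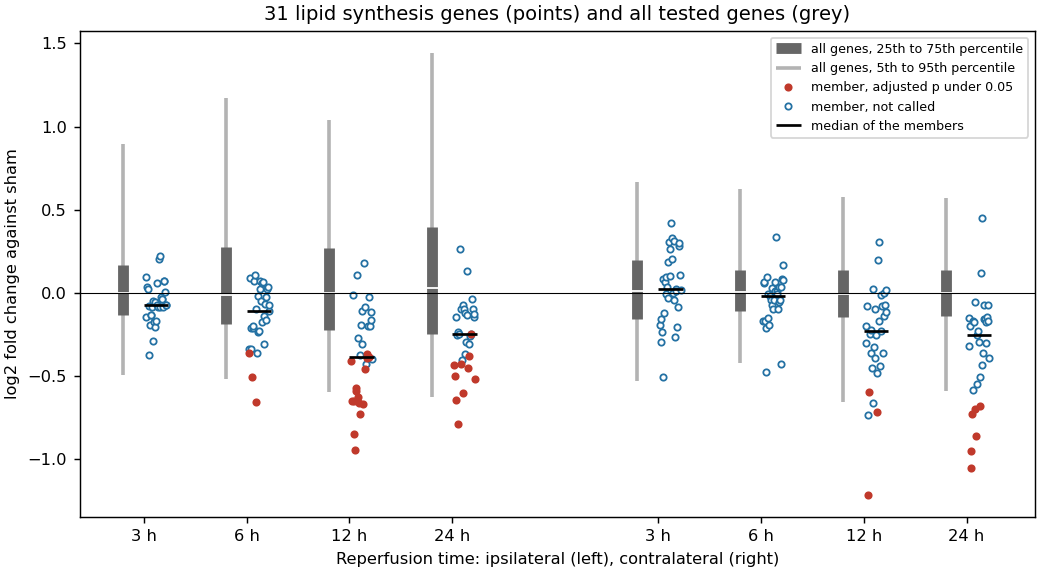
Log2 fold change against sham of the 31 members (points, filled red where the adjusted p was under 0.05, black line at their median) beside all 18087 tested genes (dark bar from the 25th to the 75th percentile, light line from the 5th to the 95th, white mark at the median), for ipsilateral cortex at the left and contralateral cortex at the right. The medians of the members are near 0 at 3 and 6 h, at -0.38 and -0.25 ipsilaterally at 12 and 24 h, and at -0.23 and -0.25 contralaterally, while those of all genes stay near 0.

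The contralateral times were also compared with each other, without the sham libraries in the contrast. This does not remove a difference in the hour of sampling between the times. In this test 7 of the 31 members differed between times (22.6%), where 0.918% of all genes did, that is 166 genes. Insig1 ranked 2nd of all 18087 genes by p (adjusted p = 0.000446). Its contralateral values were 119, 97.0 and 89.4 CPM at 3 h, 96.8, 90.0 and 89.9 CPM at 6 h, 56.6, 50 and 54.5 CPM at 12 h and 58.2, 47.8 and 59.5 CPM at 24 h. The early and the late libraries did not overlap. Mvd ranked 12th (adjusted p = 0.00154), with contralateral values of 8.26, 17.0 and 13.3 CPM at 3 h, 13.0, 13.5 and 13.8 CPM at 6 h, 5.94, 6.81 and 6.85 CPM at 12 h and 5.88, 7.80 and 8.20 CPM at 24 h. Its replicate 1 at 3 h, the library that followed GC content, lay just above the highest late library.

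The other 5 were Msmo1 (adjusted p = 0.00246), Idi1 (0.00962), Cyp51 (0.0119), the last reductase gene Dhcr7 (0.0232) and the keto-reductase gene Hsd17b7 (0.024). All 7 belong to sterol synthesis or its control, as do most members (6 mevalonate genes, 11 later sterol genes, and 5 regulators and sterol carriers). Of the 5 genes of acetyl-CoA supply and fatty acid synthesis and the 4 desaturase genes 0 were called, where 0.918% of all genes were. Fads2, Scd1, Scd2 and Elovl6 had unadjusted p of 0.00344, 0.00598, 0.0062 and 0.0315 in this edgeR test. Those of Fads1, Acly, Acss2, Acaca and Fasn were above 0.05, and 11.5% of all genes were below it. So these counts do not set the sterol genes apart from the others. Over the 4 times Cyp51 averaged 77.8, 68.3, 57.1 and 48.1 CPM in contralateral cortex. Insig1 and Msmo1 were called under each of the 20 alternatives. Single omissions left 5 to 8 members, and a fit of the contralateral libraries alone left 3. Idi1 was not called without contralateral replicate 1 at 3 h (adjusted p = 0.0529), nor was Cyp51 without contralateral replicate 1 at 24 h. Dhcr7 was lost in 5 single omissions and Hsd17b7 in 3. For both genes 1 of these was contralateral replicate 1 at 3 h, the library that followed GC content.

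The sides were then compared directly at each time. At 3 h no member was called by edgeR or DESeq2, where edgeR called 0.249% of all genes, and 9 members had an unadjusted p under 0.05, as did 10.7% of all genes. Without contralateral replicate 2 at 3 h 1 member was called. At 6 h Tm7sf2 fell, where 2.14% of all genes fell, with 7.78, 8.07 and 9.24 CPM in ipsilateral cortex, against 14.3, 12.4 and 12.2 CPM in contralateral cortex (-0.64, adjusted p = 0.0064). With the block of surgery day Fdft1 (-0.31, adjusted p = 0.042) and Acss2 (-0.35, adjusted p = 0.0496) were called too. Without ipsilateral replicate 3, 2 members were called as higher and 1 as lower.

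At 12 h 4 members were lower in ipsilateral than in contralateral cortex (12.9%), where 4.30% of all genes were lower. Tm7sf2 had 8.03, 9.05 and 8.50 CPM in ipsilateral cortex at 12 h, against 14.5, 14.7 and 11 CPM in contralateral cortex. The log2 fold change was -0.65 ± 0.15 (SE; adjusted p = 0.00375), and the contralateral level was that of sham cortex within 0.03 on the log2 scale. Tm7sf2 was the gene of the set whose fall against contralateral cortex was called at 6 and at 12 h, in both cases without loss in any single omission. Fdft1, Nsdhl and Acss2 were lower by 0.32, 0.41 and 0.38 (adjusted p = 0.0311, 0.0398 and 0.0282). Each of these 3 lost its call in at least 4 of the 6 single omissions, and 1 member was called without contralateral replicate 1 or 3 or ipsilateral replicate 1, and 2 without ipsilateral replicate 2. Mvd, Fdps and Insig1, low on both sides, had log2 fold changes between the sides of 0.36, -0.35 and 0.05, none called.

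By 24 h the direction was mixed, with 3 members higher and 1 lower in ipsilateral than in contralateral cortex. The 12.9% of members called was below the 19.1% of all genes called, of which 9.74% were higher and 9.36% lower. Cyp51 had 83.7, 64.0 and 71.1 CPM in ipsilateral cortex at 24 h, against 46.4, 46.6 and 51.1 CPM in contralateral cortex. Every ipsilateral library was above every contralateral one, and the log2 fold change of 0.60 ± 0.12 (SE; adjusted p = 0.00117) held without any single library. Idi1 had 11.2, 7.65 and 8.43 CPM in ipsilateral cortex at 24 h, against 5.77, 5.43 and 5.64 CPM in contralateral cortex (0.69, adjusted p = 0.0081). Without ipsilateral replicate 1, its highest library, the adjusted p was 0.0714.

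Lss had 47.0, 44.3 and 50.4 CPM in ipsilateral cortex at 24 h, against 26.8, 29.2 and 48.8 CPM in contralateral cortex, where replicate 3 lay within the ipsilateral range (0.44, adjusted p = 0.0425). Acat2 was lower, at 21.2, 20.6 and 18.2 CPM in ipsilateral cortex at 24 h, against 24.3, 22.9 and 25.9 CPM in contralateral cortex (-0.29, adjusted p = 0.041). Lss lost its call without contralateral replicate 1 or 2 or any ipsilateral replicate (adjusted p 0.0585 to 0.278). Acat2 lost it without contralateral replicate 1 or 3 or ipsilateral replicate 2 or 3 (0.0598 to 0.173). Without contralateral replicate 1 or ipsilateral replicate 1 the count was 2. A test of whether the difference between the sides changed over the 4 times, added after the other results were seen, called 1.34% of all genes and no member. The smallest adjusted p among members was 0.119, for Cyp51. This interaction was run with edgeR only.

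**Figure D4:**
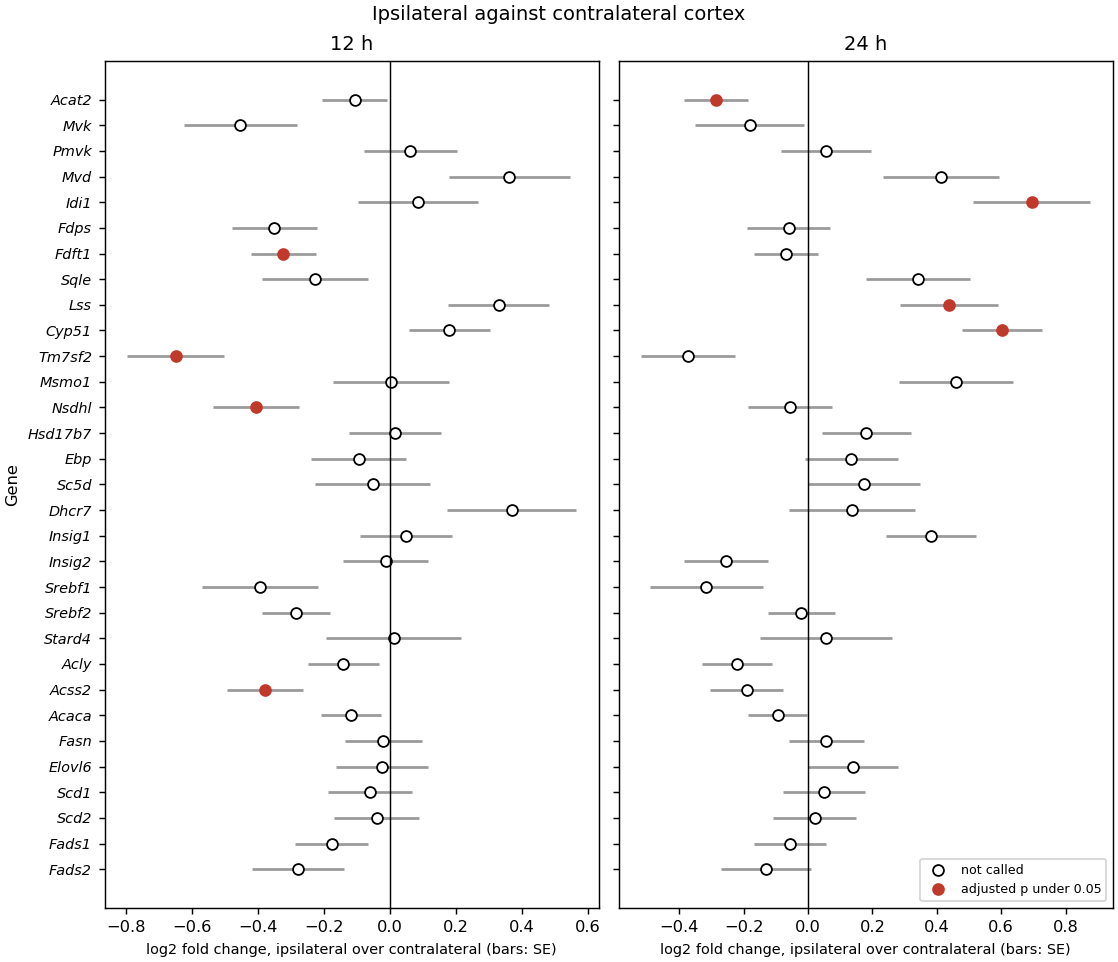
Log2 fold change of the 31 genes between ipsilateral and contralateral cortex at 12 h (left) and 24 h (right), positive where ipsilateral was higher, with bars of 1 SE and filled red points where the adjusted p was under 0.05. At 12 h the 4 called genes, Fdft1, Tm7sf2, Nsdhl and Acss2, lie below 0, and at 24 h Idi1, Lss and Cyp51 lie above 0 and Acat2 below it.

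Markers of cell types moved in the same libraries. Their counts of calls stand beside the shares of all genes. In ipsilateral cortex 3.72% of all genes fell and 6.58% rose at 12 h, and 10.9% fell and 11.3% rose at 24 h. Of 12 oligodendrocyte markers 1 fell in ipsilateral cortex at 12 h and the median log2 fold change was -0.50, with summed levels of 1050 to 1130 CPM in ipsilateral cortex at 12 h, against 1280 to 1610 CPM in sham cortex. In ipsilateral cortex at 24 h 3 fell, with sums of 1010 to 1300 CPM. In contralateral cortex at 24 h none was called, the median was -0.52 and the sums were 1150 to 1440 CPM, which overlaps sham, and at 12 h the median was -0.26 with sums of 913 to 1580 CPM. Neuron markers fell in 3 of 10 in ipsilateral cortex at 12 h and 5 of 10 at 24 h, with sums of 3700 to 4090 and 3320 to 3750 CPM, against 4580 to 5180 CPM in sham cortex. In contralateral cortex at 24 h 0 of the 10 neuron markers were called, and their sums were 5030 to 5300 CPM.

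Of 10 astrocyte markers none was called in ipsilateral cortex at 12 h. Their median there was -0.24 and their sums were 3560 to 4290 CPM, against 4120 to 5180 CPM in sham cortex. At 24 h 2 fell (3840 to 5290 CPM), where 10.9% of all genes fell. Microglia markers fell in 3 of 8 at 12 h and 4 of 8 at 24 h in ipsilateral cortex, with sums of 148 to 184 and 120 to 190 CPM, against 188 to 227 CPM in sham cortex. Of 8 markers of infiltrating myeloid cells 3 rose in ipsilateral cortex at 24 h, where the sums were 9.85 to 44.3 CPM, against 7.84 to 12.2 CPM in sham cortex. Of these 8, S100a8 and Mmp8 were at 0 in 1 library. Of 7 oligodendrocyte precursor markers 3 fell in ipsilateral cortex at 24 h, with sums of 124 to 195 CPM, against 182 to 232 CPM in sham cortex. Of 8 endothelial and mural markers 1 rose and 1 fell there, near the 11.3% and 10.9% of all genes. The sums of these markers were 227 to 339 CPM, against 219 to 272 CPM in sham cortex. None of 8 choroid plexus markers was called at any time. Their sums reached 725 CPM in ipsilateral cortex at 3 h and 347 CPM at 6 h, and 418, 84.6 and 191 CPM in contralateral cortex at 6, 12 and 24 h, against 7.74 to 14.8 CPM in sham cortex. The median library of each of these groups was at 15.2 CPM or less. Otx2 of this list was at 0 in 10 libraries. The part of these cell types in the results for sterol and fatty acid genes was not tested.

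Other genes of the same metabolism were counted from lists of related pathways. In ipsilateral cortex 6.58% of all genes rose and 3.72% fell at 12 h, and 11.3% rose and 10.9% fell at 24 h, the shares beside which the counts of these lists stand. Among 13 other sterol synthesis and uptake genes the median log2 fold change was -0.15 in ipsilateral cortex at 12 h and -0.14 at 24 h. Scarb1, which encodes a lipoprotein receptor, rose in ipsilateral cortex at 6 h by 0.73 (adjusted p = 0.00451). It was also higher in ipsilateral than in contralateral cortex at 6, 12 and 24 h, by 0.54, 0.68 and 0.65 (adjusted p = 0.0316, 0.0048 and 0.0052). The call at 6 h was lost in 5 of 6 single omissions, and that at 12 h without ipsilateral replicate 3 (0.0529). Lrp1, a further lipoprotein receptor gene, was lower in ipsilateral than in contralateral cortex at 6 h by 0.51 (adjusted p = 0.0327; 0.0955 to 0.172 in the 4 omissions that ended the call).

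Of 10 genes that process or turn over SREBP 1 rose at 12 and 24 h and none fell. Erlin1, part of a membrane complex at the endoplasmic reticulum, averaged 31.6 ± 8.31 CPM in ipsilateral cortex at 12 h and 17.0 ± 1.22 CPM in sham cortex (SD, n = 3 each; 0.89, edgeR adjusted p = 0.00144). It was 0.71 higher at 24 h (adjusted p = 0.00487). Mbtps1, the Golgi protease that first cuts SREBP, was lower in ipsilateral than in contralateral cortex at 6 h (-0.38, adjusted p = 0.0191), and the ubiquitin ligase gene Fbxw7 at 12 h (-0.47, adjusted p = 0.0152). Each lost its call in 4 of 6 single omissions (0.0608 to 0.107 for Mbtps1 and 0.0522 to 0.118 for Fbxw7).

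Of 16 genes of cholesterol export, LXR control and turnover, 1 rose and 2 fell in ipsilateral cortex at 12 h, and 3 rose and 4 fell at 24 h, with medians of -0.09 and -0.11. Mylip, whose product degrades the LDL receptor, was 0.76 higher at 12 h (adjusted p = 0.000447). Abca1, the cholesterol exporter gene, averaged 127 ± 28.4 CPM in ipsilateral cortex at 24 h and 78.4 ± 11.5 CPM in sham cortex (SD, n = 3 each; 0.69, edgeR adjusted p = 0.000755). Cyp46a1, the neuronal hydroxylase that clears brain cholesterol, averaged 92.9 ± 6.5 CPM in ipsilateral cortex at 24 h and 140 ± 8.45 CPM in sham cortex (SD, n = 3 each; -0.59, edgeR adjusted p = 0.000933).

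Of 21 other genes of fatty acid synthesis, elongation and activation, 3 fell in ipsilateral cortex at 12 h, and 5 fell and 1 rose at 24 h, with medians of -0.04 and -0.08. Tecr, which encodes the last reductase of chain elongation, fell by 0.50 at 24 h (adjusted p = 0.00104), and the acyl-CoA synthetase gene Acsl5 by 0.46 (adjusted p = 0.00482). The elongase gene Elovl1 averaged 11.6 ± 6.77 CPM in ipsilateral cortex at 24 h and 5.40 ± 0.88 CPM in sham cortex (SD, n = 3 each), and was not called without ipsilateral replicate 1 (adjusted p = 0.149). Of 24 genes of fatty acid oxidation and storage, 2 rose and 3 fell in ipsilateral cortex at 24 h, near the 11.3% and 10.9% of all genes. Plin2, which coats lipid droplets, averaged 23.5 ± 15.2 CPM in ipsilateral cortex at 24 h and 3.53 ± 0.54 CPM in sham cortex (SD, n = 3 each), a rise of 2.73 on the log2 scale (edgeR adjusted p = 1.69e-05). Angptl4, a lipase inhibitor gene, rose by 1.35 at 24 h (adjusted p = 0.000469), and Fabp5, a fatty acid binding protein gene, fell by 0.66 at 12 h (adjusted p = 0.00206). In contralateral cortex no gene of these 5 lists was called against sham at any time by edgeR. Between the contralateral times, however, 3 of the 13 other sterol synthesis and uptake genes differed, where 0.918% of all genes did. Among them were the lipoprotein receptor genes Lrp8 (edgeR adjusted p = 0.024) and Scarb1 (0.0309). The elongase gene Elovl2 (0.0304) and Angptl4 (0.0108) also differed between these times.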

How the data were processed

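The deposited table holds raw counts per gene for 27 libraries, made by the authors with STAR 2.5.0a on mm10 and featureCounts 1.4.3-p1, per the submitters' processing notes. Neither the annotation nor the strand setting of the counting is given in the sources used here. From the counts, genes were kept by edgeR's filterByExpr (minimum count 10, minimum total 15), scaled by TMM, and fitted in 1 robust quasi-likelihood model over all 27 libraries (edgeR 4.0.16, R 4.3.3). P-values were adjusted by Benjamini-Hochberg over the 18087 genes tested, with a threshold of 0.05. The model had 18 residual degrees of freedom, and depth was 26505996 to 48830897 counts per library.

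The alternatives were DESeq2 1.42.0, other size factors, other filters, abundant RNAs left out, the compared groups alone, surgery day as a block, and single libraries left out. The member genes and the related and marker lists were chosen with earlier results of these data known. Values in each library of the compared groups are given for selected comparisons, not for all 27 libraries. This holds, within each role, for the 3 members with the smallest p over the 12 comparisons of 2 groups. It also holds for members called in at least 2 of the 8 comparisons with sham. Other members with values were added after these were seen. Up to 3 genes of each related list were named by the same measure, and 1 of them is not reported here. Replicate numbers mark the day of surgery, per the series' design text. Deviations from group means correlated at 0.0475 on average for the 108 pairs of libraries with the same number and -0.0237 for the 216 other pairs. The labels do not state that animals were pooled or kept single. The statistics were tested on simulated data.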

Additional observations from a re-analysis of the deposited data

Results flagged for a closer look

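Differences between the 2 sides of the brain were tested directly, and 9 passed edgeR's quasi-likelihood test after adjustment over all genes. At 6 h Tm7sf2 was -0.64 (log2, ipsilateral over contralateral; adjusted p = 0.0064). At 12 h Tm7sf2 was -0.65 (adjusted p = 0.00375), Nsdhl -0.41 (0.0398), Acss2 -0.38 (0.0282) and Fdft1 -0.32 (0.0311). At 24 h Cyp51 was 0.60 (0.00117), Idi1 0.69 (0.0081), Lss 0.44 (0.0425) and Acat2 -0.29 (0.041). In 8 of the 9 the 3 ipsilateral libraries lay on 1 side of the 3 contralateral ones, and the exception was Lss. The 9 were picked by the test on these same libraries, so this separation is no further support. Groups of 3 libraries are too small for a check of single outlying values.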

How the results depend on the processing

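Of the 46 calls of members in comparisons of 2 groups, 18 held under every alternative, and no alternative reversed a sign. Of 644 values under alternatives, 517 stayed on the same side of the threshold and 127 lost the call. With 3 libraries a group, calls near the threshold depended on single libraries, and the causes of the shifts were not tested.

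Counts of members called moved by over 1.5 times as follows. Contralateral cortex at 12 h against sham had 3 calls, but 5 with the replicate block, 7 with the compared groups alone, 5 with DESeq2 and 7 without the 2 libraries that stand apart, an alternative chosen after seeing the data. Without those 2 libraries ipsilateral cortex had 5 calls at 6 h and 17 at 24 h against sham. Between the sides at 6 h there was 1 call, but 3 with the replicate block, 5 with the compared groups alone, 3 with DESeq2 and 4 without the 2 libraries. Between the sides at 12 h there were 7 without them, and at 24 h 2 with no filter and 2 with the compared groups alone. The contralateral times had 3 calls with the compared groups alone and 11 without the 2 libraries. Apart from the added calls named in the report for the replicate block, and those it added for Msmo1 (0.44) and Insig1 (0.38) between the sides at 24 h and Stard4 among the ipsilateral times, pairing by surgery day changed no other call of a member.

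Leaving out 1 library at a time gave, against sham in ipsilateral cortex, 0 calls at 3 h, 1 to 3 at 6 h, 8 to 13 at 12 h and 5 to 12 at 24 h, and in contralateral cortex 0 at 3 and 6 h, 1 to 2 at 12 h and 0 to 3 at 24 h. Between the sides it gave 0 to 1 at 3 h, 1 to 3 at 6 h, 1 to 3 at 12 h and 2 to 4 at 24 h. It gave 3 to 10 among the ipsilateral times and 5 to 8 among the contralateral times.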
